A study of Mus musculus with 6 samples.

Results

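Proteoglycans are proteins that carry glycosaminoglycans, long sulfated sugar chains, and 35 genes for their core proteins, the proteins that hold them in the matrix and the enzymes that build the chains were followed here in sorted cortical astrocytes. The genes were taken by name. Of the 35 genes, 33 were represented by a probe set that carried a single gene symbol, out of 18193 genes measured in all. Xylt1 and Ndst1 were not analysed here. The 33 comprised 16 core, link and hyaluronan-binding proteins and 17 enzymes, which are described separately.

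The proteoglycans of brain matrix carry mostly chondroitin sulfate or heparan sulfate. Each chain is started on a serine of the core protein by a xylosyltransferase, extended by polymerases and then sulfated, and the pattern of sulfation decides which proteins the chain can bind. Lecticans, a family of chondroitin sulfate proteoglycans, bind hyaluronan, with link proteins stabilising the complex, and form the perineuronal nets around neurons. Syndecans and glypicans are heparan sulfate proteoglycans of the cell surface that present growth factors to their receptors. Chondroitin sulfate proteoglycans of glial scars are known as barriers to axon growth.

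The series compared 2 groups of 3 samples, each a pool of cells from about 15 FVB/N mice aged 2 to 3 months, hybridised to 1 expression array. The 3 reactive samples were green fluorescent cells of GFAP-eGFP mice, genotype TgN(hGFAP-EGFP) GFEA, whose reporter runs under a human GFAP promoter. They were sorted at 5 days from the wounded grey matter of the somatosensory cortex; the stab reached a depth of 0.7 mm over a length of 1 to 1.2 mm. The 3 non-reactive samples were green fluorescent cells from the same region of uninjured Aldh1L1-eGFP mice, genotype Tg(Aldh1l1-eGFP)OFC789Gsat. Injury and reporter line changed together, so their effects cannot be told apart. The sex of the mice was not determined, and the protocol also describes labelling with BrdU without saying whether the sorted mice received it.

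Over all genes, 173 of 18193 passed an adjusted p of 0.05 (limma, Benjamini-Hochberg), a share of 0.951%. Higher genes made up 0.39% and lower genes 0.561%. The count fell to 0 without any 1 of the non-reactive arrays and to 20, 74 and 77 without reactive replicates 1, 2 and 3. Arrays of the reactive group correlated with each other at 0.901 to 0.921, those of the non-reactive group at 0.95 to 0.963, and arrays of different groups at 0.889 to 0.93. Of 11 astrocyte markers measured, 5 fell and 1, Gfap, rose, and the sum of their linear values was 18797 to 20526 on the reactive arrays and 37945 to 46629 on the non-reactive arrays. At an unadjusted p under 0.05 (limma), 10 of the 11 were lower and 1 higher, with a median log2 fold change of -1.677. Among 15 markers of microglia and macrophages 6 rose, with sums of 24636 to 38919 against 9634 to 10180. Among 11 of blood leukocytes 3 rose, Lyz2, Cd52 and Plac8, with sums of 2693 to 5486 against 342 to 531. These sums weight the brightest genes most. The median difference of the 11 leukocyte markers was 0.706, with 9 above 0 and 2 below, and 4 had an unadjusted p under 0.05 (limma). Among 9 oligodendrocyte markers 1 rose, Ermn, by 2.17 on the log2 scale, 8 lay above 0, and the median difference of the 9 was 1.497. Of these 9, 7 were higher and 1 lower at an unadjusted p under 0.05, whereas their sums, 23440 to 24444 against 19693 to 24797, overlapped. The lowest value of any probe set was 1.885 to 2.001 (log2) over the arrays, so a value above 0 does not by itself show a transcript. The brightest neuronal and oligodendrocyte markers, Camk2a at 12.63 and 13.07 and Mbp at 13.33 and 13.83 (log2, reactive and non-reactive means), were read in both groups, so the arrays of cells labelled astrocytes also carried transcripts of other cell types. The difference between the 3′ and 5′ probe sets of the Gapdh, Actb and Pcx array controls, a sign of RNA integrity and amplification, averaged 4.17, 3.38 and 1.44 on the reactive arrays and 5.19, 5.05 and 3.46 on the non-reactive arrays. The part of these markers and controls in the results below was not tested.

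Among the 16 core, link and hyaluronan-binding proteins, 1 rose, Srgn, and 1 fell, Sdc4, against a share of 0.951% of all genes. The other 14 did not pass. Srgn encodes serglycin, a small proteoglycan packed in the granules of blood cells, and Sdc4 encodes syndecan-4, a heparan sulfate proteoglycan of focal adhesions that is abundant in astrocytes. The groups of arrays did not overlap for 9 of the 16 genes, of which 2 were higher and 7 lower in the reactive arrays. Over all genes the groups did not overlap for 21.7%, with 13.5% higher and 8.2% lower. At an unadjusted p under 0.05 (limma) 2 of the 16 were higher and 7 lower, 9 in all, against 15% of all genes. The median log2 fold change of the 16 genes was -0.12, beside 0.12 for all genes, and ran from -0.33 to -0.15 with 1 array left out, lowest without reactive replicate 3. That of the 11 astrocyte markers on the same arrays was -1.677, with 10 below 0 and 1 above. Their part in the differences of these 16 genes was not tested.

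The promoters of these 2 genes are shown because they were the members that passed the test. Each sequence is the 250 bases before an annotated start site, 5′ to 3′ on the minus strand of GRCm38.p6, from RefSeq. Capitals mark matches on either strand to 5 motifs. These were the Sp factor motif GGGCGG, the core promoter motif TATAAA, the AP-1 motif TGANTCA, the STAT factor motif TTCNNNGAA and the PU.1 motif GAGGAAG.
Srgn upstream start site, chr10:62527446-62527695: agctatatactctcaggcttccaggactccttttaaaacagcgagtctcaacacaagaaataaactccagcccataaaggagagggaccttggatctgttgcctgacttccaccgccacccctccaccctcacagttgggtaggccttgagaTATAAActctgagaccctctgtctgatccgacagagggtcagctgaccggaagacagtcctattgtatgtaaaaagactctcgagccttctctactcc
Srgn downstream start site, chr10:62507758-62508007: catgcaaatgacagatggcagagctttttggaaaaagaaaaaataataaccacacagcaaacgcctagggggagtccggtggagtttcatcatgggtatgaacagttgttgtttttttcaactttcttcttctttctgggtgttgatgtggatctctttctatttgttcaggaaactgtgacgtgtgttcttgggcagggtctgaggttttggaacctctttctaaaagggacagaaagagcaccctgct
Sdc4 start site, chr2:164443189-164443438: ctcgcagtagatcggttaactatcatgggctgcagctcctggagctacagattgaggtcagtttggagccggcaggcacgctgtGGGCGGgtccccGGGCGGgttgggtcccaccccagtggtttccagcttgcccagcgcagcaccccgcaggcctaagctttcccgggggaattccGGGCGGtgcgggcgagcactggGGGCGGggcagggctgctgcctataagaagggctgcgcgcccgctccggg
The upstream Srgn promoter held 1 TATAAA match and the downstream one held no match to any of the motifs, while the Sdc4 promoter held 4 GGGCGG matches. Of 32851 promoters of this length, 32.7% held GGGCGG, 12.4% TATAAA, 6.75% TGANTCA, 7.02% TTCNNNGAA and 10.6% GAGGAAG. Counted by gene, a match at any start site was held by 35.4%, 14.3%, 7.82%, 8.13% and 12% of 27025 genes, in the same order. Of the 24 listed genes with a sequence in that table, 20 held GGGCGG, 3 TATAAA, 1 TGANTCA, 0 TTCNNNGAA and 4 GAGGAAG. These matches describe the letters in these windows only.

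Values below are log2 expression values, given for each group in the order of replicates 1, 2 and 3. Srgn measured 9.36, 9.58 and 9.77 on the reactive arrays and 6.27, 6.70 and 7.36 on the non-reactive arrays. The 3 reactive arrays lay close together and every one of them lay above the non-reactive arrays. Srgn rose 6.94-fold, from 6.78 ± 0.55 to 9.57 ± 0.20 (SD, n = 3), a log2 fold change of 2.80 (SE 0.31, 95% interval 2.05 to 3.54, limma adjusted p = 0.0265). It was read by 1 probe set. The call was lost without any 1 of the 6 arrays (limma adjusted p of 0.0574 to 0.105, log2 fold changes of 2.54 to 3.09), in a range of 0.0188 to 0.105 over all alternatives. Serglycin is a gene of myeloid cells, and of the 15 markers of microglia and macrophages 6 rose on the same arrays, among them C1qa by 3.76, Tyrobp by 2.59 and Trem2 by 2.24 on the log2 scale, while Csf1r differed by 0.42 without passing. In bulk samples a change in the share of a cell type and a change in RNA per cell cannot be told apart. The share of the Srgn signal that came from such cells was not tested.

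Sdc4 measured 9.77, 9.45 and 10.02 on the reactive arrays and 12.24, 11.49 and 11.46 on the non-reactive arrays. All reactive arrays lay below all non-reactive ones. It fell 3.95-fold, from 11.73 ± 0.44 to 9.75 ± 0.28 (SD, n = 3), a log2 fold change of -1.98 (SE 0.29, limma adjusted p = 0.0462). Its other probe set, of lower signal, differed by -0.71 (SE 0.48, limma adjusted p = 0.563) with overlapping groups. The call was lost without any 1 of the 6 arrays (0.0685 to 0.137). It was also lost with median centring (0.0522), robust eBayes (0.0502), array weights (0.0521), the mean of its probe sets (0.115) and without probe sets of the _a_at type (0.577), in a range of 0.0388 to 0.577 over all alternatives.

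Of the other syndecans, Sdc2, the syndecan of fibroblasts and dendritic spines, measured 6.15, 5.98 and 6.86 on the reactive arrays and 8.10, 7.95 and 8.25 on the non-reactive arrays. The groups did not overlap, and the difference of -1.77 (SE 0.28) missed the threshold (limma adjusted p = 0.0538). Its 3 other probe sets differed by -1.14, 0.09 and 0.00. Sdc2 passed with array weights (0.0489) and without reactive replicate 3 (0.0436), in a range of 0.0436 to 0.259. Sdc3, the syndecan of neurons, differed by 0.25 (95% interval -0.23 to 0.73) and Sdc1, the syndecan of epithelia and plasma cells, by 0.16 (95% interval -0.39 to 0.71). For Sdc1 the probe sets differed widely, from -0.11 to 2.53. Another differed by 1.16 (SE 0.45, limma adjusted p = 0.341), with groups that did not overlap. The probe set at 2.53 measured 6.53, 2.61 and 5.83 in the reactive arrays, so that replicate 2 stood with the non-reactive arrays at 2.34, 2.60 and 2.45. Gpc1, a glypican anchored by a lipid to the cell surface, measured 6.86, 7.14 and 8.26 against 6.78, 7.30 and 6.24 and differed by 0.65 (SE 0.44) without passing. Of the 5 heparan sulfate core proteins, 1 fell and 0 rose (limma), against 0.951% of all genes, and 2 had an unadjusted p under 0.05, against 15%.

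**Figure D1:**
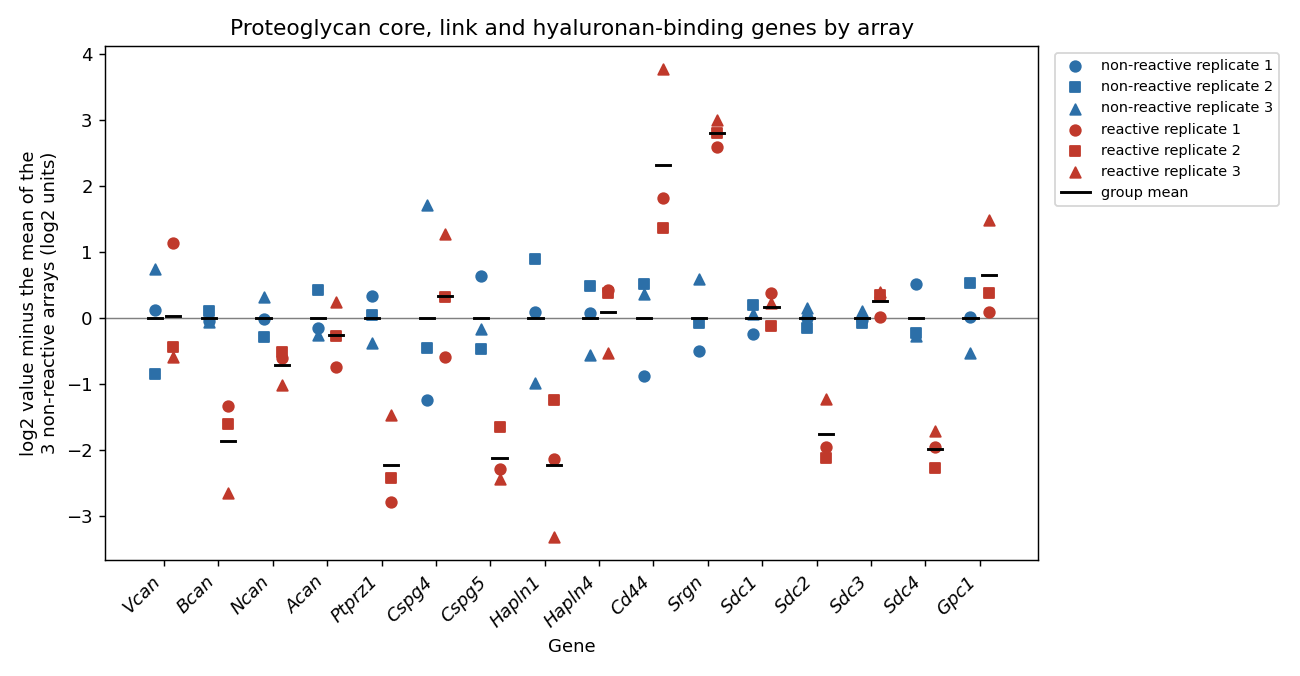
Log2 values of the 16 core, link and hyaluronan-binding genes on the 6 arrays, each gene set to the mean of its 3 non-reactive arrays (vertical axis, log2 units; blue, non-reactive; red, reactive; symbol shape, replicate; black bar, group mean). The red points of Bcan, Ncan, Ptprz1, Cspg5, Hapln1, Sdc2 and Sdc4 lie below all blue points of the same gene, and those of Srgn and Cd44 lie above.

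Of the 4 lecticans 0 passed the test (limma), against 0.951% of all genes. Bcan and Ncan, 2 of the 4, had an unadjusted p under 0.05, against 15% of all genes. Their groups did not overlap, against 21.7% of all genes. Bcan, which encodes brevican, a lectican made by astrocytes and found in perineuronal nets, measured 11.19, 10.92 and 9.86 on the reactive arrays and 12.48, 12.63 and 12.46 on the non-reactive arrays. The non-reactive arrays agreed to within 0.09 (SD), and all reactive arrays lay below them, replicate 3 lowest. Bcan differed by -1.87 (SE 0.36, 95% interval -2.73 to -1.01) and did not pass (limma adjusted p = 0.0859). Its other probe set also differed by -1.87 (SE 0.42). Brevican did not pass in any of the 16 alternatives (0.0611 to 0.274), and the difference kept its sign in all of them.

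Ncan, which encodes neurocan, a lectican known to increase around brain wounds, measured 8.49, 8.58 and 8.08 on the reactive arrays and 9.08, 8.81 and 9.41 on the non-reactive arrays. It differed by -0.72 (SE 0.25, limma adjusted p = 0.297), with groups that did not overlap. The other probe sets of Ncan differed by -1.47 and 0.45, in opposite directions. Vcan, which encodes versican, the lectican of oligodendrocyte precursors and developing matrix, measured 5.94, 4.36 and 4.20 against 4.92, 3.96 and 5.54. Its difference of 0.03 had a 95% interval of -1.37 to 1.43, so changes of up to 2-fold in either direction lay within it. Its 8 probe sets ran from -0.66 to 0.75 and none passed. Acan, which encodes aggrecan, the lectican that marks perineuronal nets, measured 4.14, 4.61 and 5.14 against 4.74, 5.30 and 4.62 and differed by -0.26 (95% interval -1.04 to 0.52). These values of Vcan and Acan lay near 4.74, the median level of a probe set on these arrays.

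Ptprz1, a receptor tyrosine phosphatase whose secreted form is the proteoglycan phosphacan, measured 7.08, 7.43 and 8.39 on the reactive arrays and 10.19, 9.91 and 9.49 on the non-reactive arrays. The groups were more than 1 log2 unit apart at their closest points. Its difference was -2.23 (SE 0.38, limma adjusted p = 0.065). The 2 further Ptprz1 probe sets differed by -1.80 and -2.53, so all 3 lay below 0 with groups that did not overlap. Ptprz1 passed with the mean of its probe sets (-2.18, limma adjusted p = 0.0235) and without reactive replicate 3 (-2.61, 0.0441), in a range of 0.0235 to 0.213. Cspg5, which encodes neuroglycan C, a transmembrane proteoglycan of the nervous system, measured 6.28, 6.93 and 6.14 against 9.22, 8.11 and 8.40. It differed by -2.13 (SE 0.36, limma adjusted p = 0.0635). It passed after a second quantile normalisation (0.0485), after cyclic loess (0.0445) and with the mean of probe sets (0.0471), in a range of 0.0445 to 0.173.

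Cspg4, which encodes NG2, the proteoglycan of oligodendrocyte precursors and pericytes, measured 5.53, 6.44 and 7.39 on the reactive arrays and 4.88, 5.67 and 7.84 on the non-reactive arrays. Both groups were spread widely and overlapped, and the difference of 0.32 had a 95% interval of -1.63 to 2.28. Of the 8 precursor markers measured 0 passed, with 1 at an unadjusted p under 0.05 (limma). The sum of their linear values was 1444 to 2691 on the reactive arrays and 895 to 1396 on the non-reactive arrays. For the 8 pericyte and fibroblast markers 0 passed and 2 had an unadjusted p under 0.05, both lower, with sums of 271 to 1545 and 567 to 1078.

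Among the proteins that bind these matrix components, Hapln1, a link protein that fixes lecticans to hyaluronan, measured 4.59, 5.48 and 3.41 on the reactive arrays and 6.82, 7.62 and 5.75 on the non-reactive arrays. The groups did not overlap, but both were widely spread, with SDs of 1.04 and 0.94. The difference of -2.24 (SE 0.65) did not pass (limma adjusted p = 0.219), and 3 probe sets of lower signal differed by -0.38, -0.15 and -0.13. Hapln4, the link protein that accompanies brevican in perineuronal nets, differed by 0.09 (95% interval -0.82 to 1.00). In the mouse genome each of the 4 link protein genes lies beside a lectican gene. Differences within these 4 pairs were not tested. Hapln1 at -2.24 lies beside Vcan at 0.03, Hapln2 at 0.97 beside Bcan at -1.87, Hapln3 at 0.07 beside Acan at -0.26, and Hapln4 beside Ncan at -0.72 (log2 fold changes, none past the threshold).

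Cd44, the receptor for hyaluronan on leukocytes and reactive glia, measured 7.01, 6.56 and 8.96 on the reactive arrays and 4.31, 5.71 and 5.56 on the non-reactive arrays. All reactive arrays were higher, replicate 3 by far the most. The difference of 2.32 (SE 0.69, 95% interval 0.67 to 3.96) did not pass (limma adjusted p = 0.228), and was 1.59 to 2.79 with 1 array left out. A second probe set of Cd44 measured 7.84 on reactive replicate 3 and 3.12 to 4.18 on the other arrays, so its difference of 1.45 rested on that array. The remaining probe sets differed by -0.15 and 0.22. Leukocyte markers were highest on the same array, with a summed linear value of 5486 on reactive replicate 3 beside 3434 and 2693 on replicates 1 and 2. By these sums, so were the markers of other cell types over all 6 arrays, but not those of astrocytes, oligodendrocytes and neurons. Such sums weight the brightest genes most. By mean log2 value the precursor markers were not highest on reactive replicate 3, at 7.265 beside 7.268 on replicate 2. The oligodendrocyte markers were highest there by that measure, at 10.033. Those of microglia and macrophages summed to 38919, beside 28437 and 24636, and to 9634 to 10180 on the non-reactive arrays. Those of oligodendrocyte precursors summed to 2691, beside 1444 and 2449, and to 895 to 1396 on the non-reactive arrays. The 7 endothelial markers summed to 1206 on reactive replicate 3, beside 245 and 188 on the other reactive arrays and 165 to 224 on the non-reactive arrays. The 8 pericyte and fibroblast markers summed to 1545, beside 271 and 405, and to 567 to 1078 on the non-reactive arrays. The part of these cells in the Cd44 values was not tested.

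**Figure D2:**
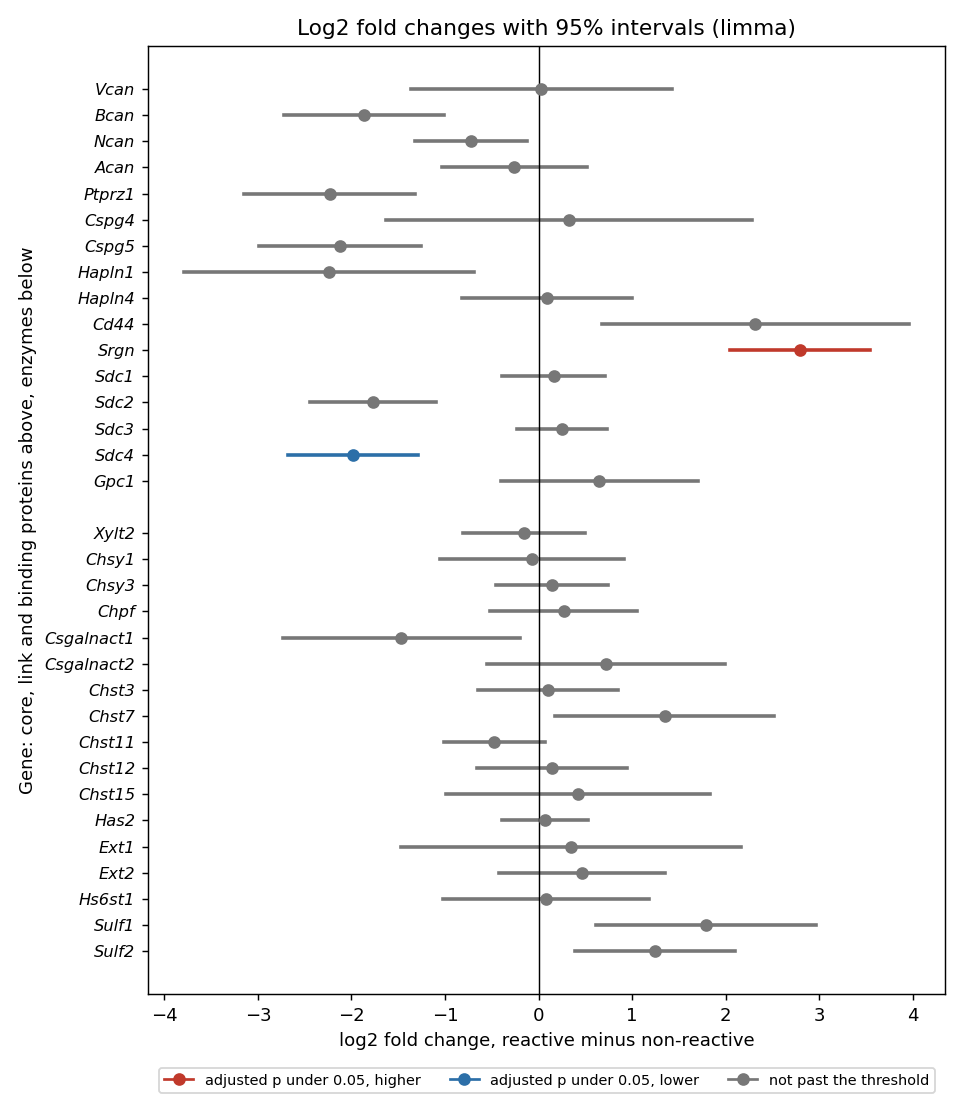
Log2 fold changes of the 33 genes, reactive minus non-reactive, with their 95% intervals from limma (horizontal axis, log2 units; core, link and binding proteins above, enzymes below; red, higher and past the threshold; blue, lower and past it; grey, not past it). Srgn at 2.80 is red and Sdc4 at -1.98 is blue, and all 17 enzymes are grey.

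Among the 17 enzymes 0 passed the test in either direction (limma), against 0.951% of all genes, and 4 had an unadjusted p under 0.05, against 15% of all genes. Their groups did not overlap for 3 genes, against 21.7% of all genes. The median log2 fold change was 0.15, beside 0.12 for all genes, and ran from 0.108 to 0.249 with 1 array left out. Without probe sets under the median level it was 0.306 for the 12 enzymes kept, beside 0.041 for all genes kept. Both group means of 4 enzymes, Xylt2, Chsy3, Chst12 and Has2, were under 4.74, the median level of a probe set on these arrays.

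Chain initiation and polymerisation showed no call. Xylt2, which puts the first xylose on the core protein, differed by -0.15 (95% interval -0.80 to 0.49). Csgalnact1, which adds the first N-acetylgalactosamine and so commits the chain to chondroitin, measured 6.65, 7.61 and 5.69 on the reactive arrays and 8.58, 7.48 and 8.29 on the non-reactive arrays. Reactive replicate 2 lay above non-reactive replicate 2, so the groups overlapped, and the difference of -1.47 (SE 0.53) did not pass (limma adjusted p = 0.315). Csgalnact2, its paralog, differed by 0.72 (SE 0.53) on the side of higher values, also without passing. The chondroitin polymerases Chsy1 and Chsy3 and their partner Chpf differed by -0.07, 0.15 and 0.27, each with a 95% interval that included 0. For heparan sulfate, the polymerase genes Ext1 and Ext2 differed by 0.35 (95% interval -1.47 to 2.16) and 0.46 (95% interval -0.42 to 1.35). The interval of Ext1 was wide because its reactive arrays were spread from 5.61 to 8.62. Has2, the hyaluronan synthase, measured 3.25 ± 0.04 and 3.19 ± 0.17 (SD, n = 3), below the lower quartile of every array.

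The sulfotransferases of chondroitin also held no call. Chst7, which sulfates carbon 6 of N-acetylgalactosamine, measured 6.92, 5.45 and 6.86 on the reactive arrays and 5.70, 4.50 and 4.98 on the non-reactive arrays. Reactive replicate 2 lay under non-reactive replicate 1, and the difference of 1.35 (SE 0.49) did not pass (limma adjusted p = 0.319). Chst3, the other enzyme of carbon 6, differed by 0.10 (95% interval -0.65 to 0.85). Chst11, which sulfates carbon 4, measured 8.10, 7.65 and 8.27 against 8.43, 8.53 and 8.48, and its difference of -0.47 (SE 0.23) did not pass although the groups did not overlap. Chst12, also an enzyme of carbon 4, differed by 0.14 (95% interval -0.66 to 0.94). Chst15, which adds a second sulfate to chondroitin, measured 7.90, 7.44 and 5.66 against 6.72, 6.94 and 6.07. The groups overlapped, and the difference was 0.42 (SE 0.59).

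Sulf1 and Sulf2 are extracellular enzymes that remove sulfates from carbon 6 of heparan sulfate and thereby change its binding of growth factors. Sulf1 measured 5.22, 6.87 and 5.45 on the reactive arrays and 3.56, 4.01 and 4.59 on the non-reactive arrays. Sulf2 measured 9.54, 9.37 and 10.37 against 8.02, 8.89 and 8.65. All reactive arrays were higher for both genes, which were the enzymes whose groups did not overlap on the higher side. The differences were 1.79 (SE 0.49, limma adjusted p = 0.195) and 1.24 (SE 0.36, limma adjusted p = 0.215), and neither passed. The non-reactive mean of Sulf1, 4.05, was under that median level, which makes the size of its difference uncertain. The other Sulf1 probe sets differed by 0.03 and 0.34, and those of Sulf2 by 0.50 and 1.00. Hs6st1, which adds the sulfates that Sulf1 and Sulf2 remove, measured 4.78, 6.54 and 5.24 against 5.50, 5.67 and 5.14 and differed by 0.08 (95% interval -1.02 to 1.18).

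**Figure D3:**
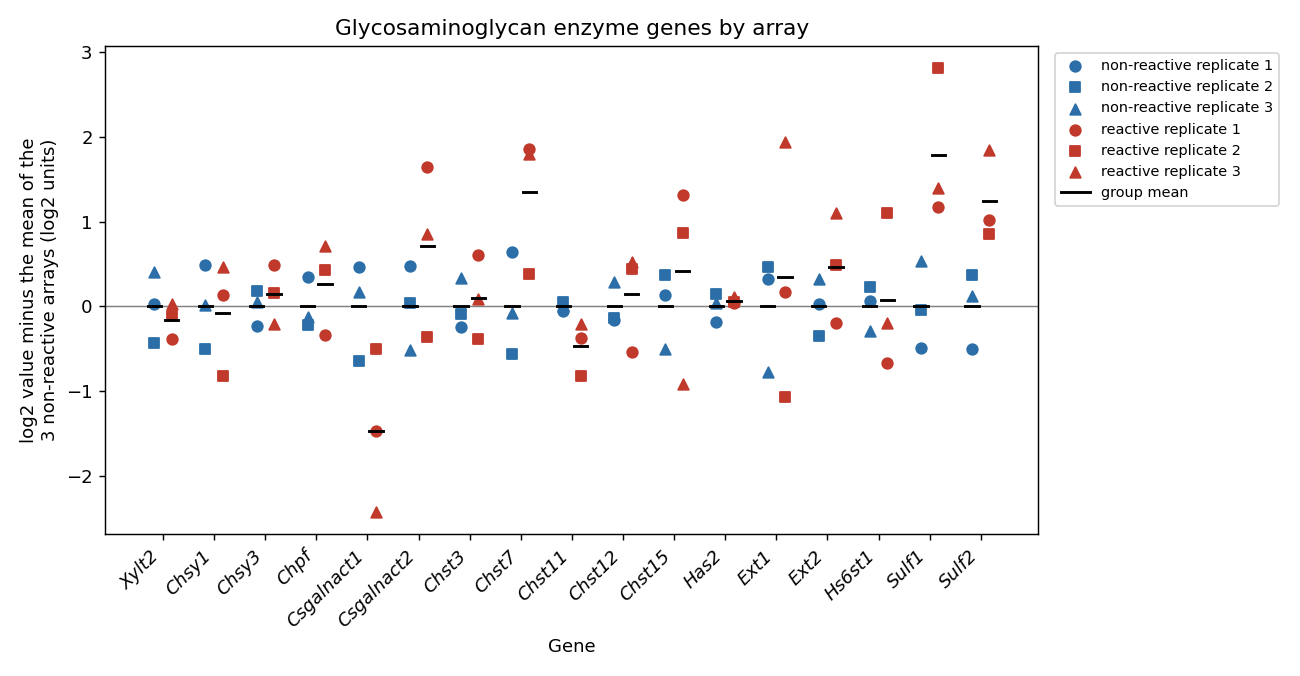
Log2 values of the 17 enzyme genes on the 6 arrays, each gene set to the mean of its 3 non-reactive arrays (vertical axis, log2 units; blue, non-reactive; red, reactive; symbol shape, replicate; black bar, group mean). The red points of Sulf1 and Sulf2 lie above all blue points of the same gene and those of Chst11 lie below.

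The spread between replicates was larger in the reactive group for 26 of the 33 genes, 78.8%, beside 65.9% of all genes. The median SD of the 33 genes was 0.59 on the reactive arrays and 0.44 on the non-reactive arrays, and that of all genes was 0.40 and 0.28. Reactive replicate 3 was the array farthest from the reactive median for 15 of the 33 genes, replicate 2 for 10 and replicate 1 for 8. The members with the widest reactive spread were Ext1 (SD 1.51), Cd44 (1.28), Chst15 (1.18) and Hapln1 (1.04).

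Of the 33 genes, 20 were read by several probe sets, and for 13 of these all probe sets differed in the same direction. For 9 genes the probe sets of the same gene were more than 1 log2 unit apart. The probe sets of Bcan, Ptprz1, Cspg4 and Sdc3 differed by less than that. Those of Vcan, Ncan, Hapln1, Cd44, Sdc1, Sdc2, Csgalnact1 and Sulf1 differed by more, as did those of Sdc4, which passed the test. In all, 2 of 73 probe sets of these genes passed, those of Srgn and Sdc4, beside 383 of all 45037 probe sets tested.

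**Figure D4:**
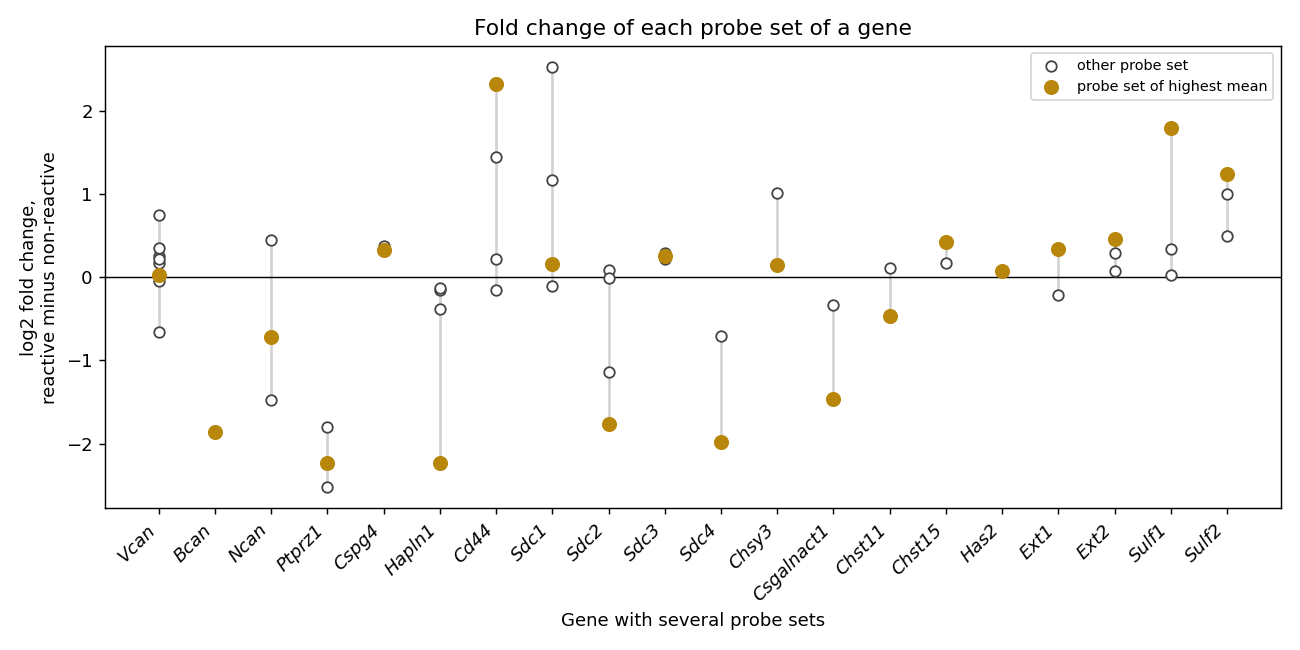
Log2 fold change of each probe set of the 20 genes with several probe sets (vertical axis, log2 units; filled, the probe set of highest mean that represents the gene; open, the others). The points of Bcan coincide at -1.87 and those of Ptprz1 lie between -2.53 and -1.80, whereas those of Sdc1 run from -0.11 to 2.53.

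Of 92 other measured genes of the pathway, 1 fell and 0 rose (limma), against 0.951% of all genes, and 18 had an unadjusted p under 0.05, against 15%. The gene that fell was Gpc5, a glypican of astrocytes, from 10.79 ± 0.26 to 7.96 ± 0.83 (SD, n = 3), a log2 fold change of -2.82 (SE 0.42, limma adjusted p = 0.0478). The Gpc5 call was lost without any 1 of 5 arrays (limma adjusted p of 0.0804 to 0.176) and kept without reactive replicate 3 (0.0415). It was also lost with median centring (0.0558), cyclic loess (0.0523) and robust eBayes (0.0545), in a range of 0.0345 to 0.176 over all alternatives. Gpc5 belonged to the list of 26 further core and link proteins, where Hspg2, the basement membrane proteoglycan perlecan, differed by -0.04 and Agrn, the agrin of basement membranes and synapses, by 0.07. Of 15 genes for the linker and for sugar and sulfate precursors 0 passed and 1 had an unadjusted p under 0.05 (limma). Fam20b, the xylose kinase of the linker, differed by -0.07 and Papss1, which makes the sulfate donor, by 0.34. For 15 other heparan sulfate enzymes these counts were 0 and 3, and Hs3st2, a sulfotransferase, differed by 0.16 and Extl2, an exostosin-like glycosyltransferase, by -0.46.

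No gene passed among 6 other enzymes of chondroitin and dermatan, 9 other hyaluronan genes, 5 keratan sulfate enzymes, 10 lysosomal enzymes and 6 receptors and net partners (limma), of which 0, 2, 1, 4 and 0 had an unadjusted p under 0.05. The lysosomal enzymes had the highest median log2 fold change of these lists, 0.71, with 7 of the 10 above 0 and 3 below. Of the 4 at an unadjusted p under 0.05 (limma), 3 were higher and 1 lower. Their summed linear value, which weights the brightest genes most, was 7612 to 11962 in the reactive against 5030 to 5706 in the non-reactive arrays. Their mean log2 values overlapped, at 6.72, 7.466 and 7.957 on the reactive arrays and 7.085, 6.883 and 6.782 on the non-reactive arrays. Hexa, a subunit of the enzyme that removes hexosamines, differed by 1.12 (SE 0.46) and Ids, iduronate sulfatase, by 0.21 (SE 0.41). Among the receptors, the phosphatases Ptprs and Ptprf differed by 0.22 and -0.15. Ust, a sulfotransferase of uronic acid, differed by 0.40 and Chpf2 by 0.28. The hyaluronan genes Hyal2, a hyaluronidase, and Has1, a synthase, differed by -0.07 and 0.07, and the keratan sulfate enzymes Chst1 and Chst2 by -0.45 and -0.37.

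**Figure D5:**
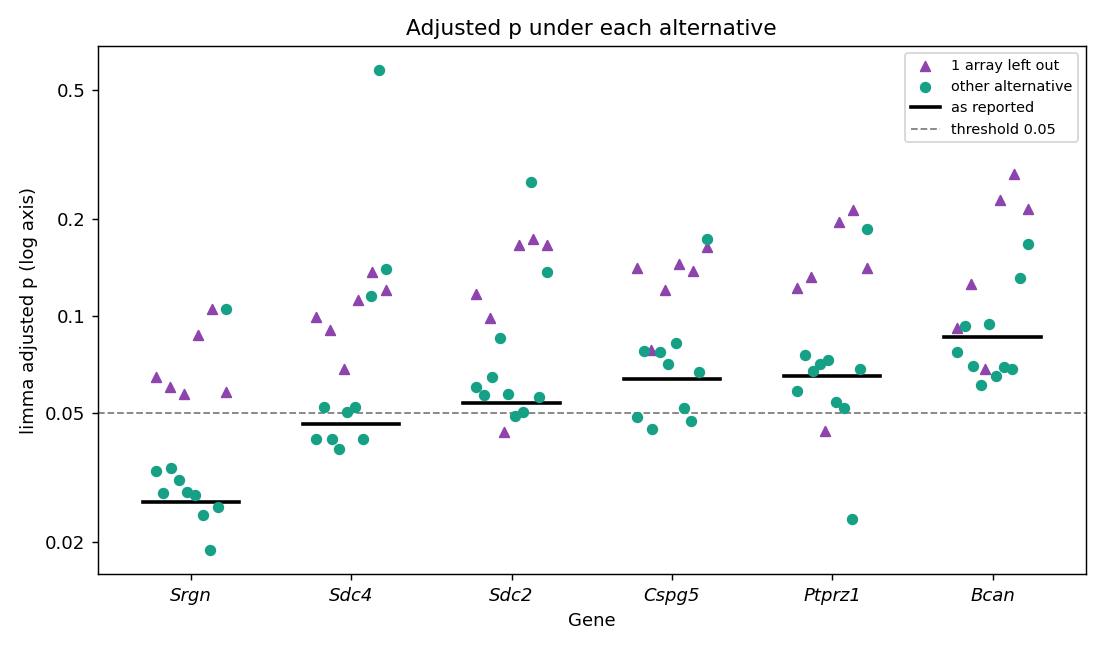
Limma adjusted p of 6 core protein genes as reported (black bar) and under 16 alternatives (vertical axis, logarithmic; triangles, 1 array left out; circles, other alternatives; dashed line, threshold of 0.05). Srgn lies below the line in 9 alternatives and Sdc4 in 4, Cspg5 in 3, Ptprz1 and Sdc2 in 2 each, and Bcan in 0.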

How the data were processed

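RNA of 6 pools of sorted cells was amplified in 2 rounds and biotin-labelled, per the labels' protocols. What was deposited are log2 values per probe set that the authors made with RMA, per the submitters' processing notes. The RMA version and settings were not stated in the labels, and the log2 scale was read from the range of the values. The array medians were 4.65 to 4.73. RMA equalises the arrays, which hides changes in total RNA and compresses high and low values. Of 45101 probe sets 64 controls were left out. Of the other 45037, 34945 had exactly 1 gene symbol in the platform annotation, 932 had several and 9160 had none; identifiers of 34741 matched a table of GRCm38.p6, which changed 0 symbols. Of a gene's probe sets with 1 symbol, the one of highest mean level represented it.

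Reactive minus non-reactive was fitted on all 45037 probe sets in limma 3.58.1 (lmFit, then eBayes; R 4.3.3), without covariates, two-sided, with Benjamini-Hochberg adjustment over all of them and a threshold of 0.05. Errors beside differences are moderated standard errors. The labels call the samples biological replicates, and their number limits the precision. The genes, lists and tests were chosen with earlier results of these data known. The text names every gene of the 35 that was measured, and of the other pathway genes each that passed and the 2 others of highest mean per list; Hapln2 and Hapln3 were added, with their values known, as neighbours of lectican genes; of the markers, examples that passed and bright ones are named. The 16 alternatives were scaling, variance models, array weights, a filter on low signal, probe set choice, the replicate number as a block and each array left out.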

Additional observations from a re-analysis of the deposited data

How the results depend on the processing

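Of 537 refits of single genes, 477 kept their direction and side of the threshold. Genes far from the threshold could hardly change side, so this count says little about the calls. Of the called genes, Srgn stayed past the threshold in 9 of 16 alternatives, Sdc4 in 4 and Gpc5 in 7. With another scaling the median of all genes was 0.06 to 0.13, beside 0.12 as reported. The count of core proteins past the threshold, 2 as reported, was 1 with median centring, 1 with robust eBayes and 1 without _x_at, _s_at and _a_at probe sets, 3 with a second quantile normalisation, 3 with cyclic loess, 3 with the mean of probe sets, and 0 to 2 with 1 array left out. That of other pathway genes, 1 as reported, was 0 with median centring, 0 with cyclic loess, 0 with robust eBayes and 0 to 1 with 1 array left out; that of all genes, 173 as reported, was 0 to 77 with 1 array left out (1909 to 2979 at an unadjusted p under 0.05, limma). It was 0 without any 1 of the non-reactive arrays and 20, 74 and 77 without reactive replicates 1, 2 and 3. The cause was not tested. The enzymes had 0 calls in all 16 alternatives, with 2 to 5 at an unadjusted p under 0.05. The median log2 fold change of core proteins, -0.12 as reported, was -0.33 to -0.15 with 1 array left out.

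Under the replicate block limma called 0 of all genes (2401 at an unadjusted p under 0.05), 0 core proteins (8 at that p) and 0 other pathway genes (16 at that p), with an adjusted p of 0.105 for Srgn, 0.14 for Sdc4 and 0.148 for Gpc5. Samples of the same number did not deviate together (correlations of -0.07, -0.11 and 0.04, and 1 of 6 samples correlated best with its own number). No pairing was assumed, although so few correlations cannot show that samples of the same number shared no batch.

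Differences of genes that did not pass changed sign in 25 refits of 12 genes. With cyclic loess Vcan was at -0.019, Chsy3 at -0.013 and Has2 at -0.078, and Has2 was at -0.051 after a second quantile normalisation. With 1 array left out Vcan ran from -0.52 to 0.40, Cspg4 from -0.30 to 1.18, Hapln4 from -0.19 to 0.40, Xylt2 from -0.37 to 0.046, Chsy1 from -0.35 to 0.30, Chsy3 from -0.024 to 0.32, Chst3 from -0.15 to 0.34, Chst12 from -0.048 to 0.48, Chst15 from -0.026 to 1.09, Has2 from -0.024 to 0.14, Ext1 from -0.45 to 1.05 and Hs6st1 from -0.43 to 0.45. Signal near the array background limits what can be said of Xylt2, Chsy3, Chst12 and Has2.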
